A study of Mus musculus with 6 samples.

Results

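The xenobiotic receptors CAR (Nr1i3) and PXR (Nr1i2), the Cyp2b subfamily of cytochromes P450 (Cyp2b10, Cyp2b9, Cyp2b13, Cyp2b19 and Cyp2b23) and the P450 reductase Por were examined in mouse liver with and without DEHP, the plasticizer di(2-ethylhexyl) phthalate. These 8 genes were chosen by name. A gene was matched by its symbol in the deposited count table, or, for Cyp2b9 and Cyp2b13, by a protein-coding row whose description names it. Of the 8 genes, 7 had a row among 41096 named rows, 5 had any count, and 4 (Nr1i3, Nr1i2, Cyp2b10 and Por) passed the low-count filter and were tested among 12468 genes. No row was found for Cyp2b13, which was not analysed further as a transcript.

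Polyadenylated RNA was sequenced from 3 DEHP libraries and 3 control libraries of whole liver. The columns of the DEHP group carry the word High. The labels give no dose, route, duration, vehicle, strain, age or sex, and whether each library is a separate animal is not stated. The p-values therefore reflect only how much these libraries vary, which may be technical. Where DEHP livers or control livers are named below, the 3 libraries of that group are meant, and n counts libraries. Totals ran from 10410098 to 12405044 counts in DEHP libraries and from 12001969 to 14229803 in control libraries. Hepatocyte markers were abundant in all 6, at 114600 to 148000 CPM (counts scaled by library size) summed over the 9 of 12 markers with a row in DEHP libraries and 125800 to 172100 CPM in control libraries.

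CAR and PXR are nuclear receptors that sense drugs and other foreign chemicals in hepatocytes. Each binds DNA as a heterodimer with the retinoid X receptor and switches on genes for oxidation, conjugation and export of its ligands. CAR is held in the cytoplasm until it is activated, so its activity is not set by its transcript level alone. Cyp2b10 is the classical target of CAR in mouse liver, while Cyp2b9 and Cyp2b13 are known there mainly as female-predominant genes repressed by the male pattern of growth hormone. Cyp2b19 is known from skin. Por passes electrons from NADPH to the microsomal P450 enzymes and is itself a known target of CAR.

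The proximal promoters of the Cyp2b genes are shown so that the 2 genes with counts can be compared with the 2 that had a row but no count. Each line gives the 120 bases before the RefSeq transcription start on GRCm38.p6, read in the direction of transcription. Capitals mark the octamer TTGCATAA, a sequence of the kind that C/EBP factors bind, and ATAAAA, a sequence of the TATA kind.
Cyp2b10 (chr7:25897538-25897657, plus strand): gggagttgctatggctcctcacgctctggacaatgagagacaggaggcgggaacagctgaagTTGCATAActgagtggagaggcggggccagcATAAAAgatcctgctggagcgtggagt
Cyp2b9 (chr7:26173289-26173408, plus strand): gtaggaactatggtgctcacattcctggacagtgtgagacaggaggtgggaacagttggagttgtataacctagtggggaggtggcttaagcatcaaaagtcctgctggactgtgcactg
Cyp2b13 (chr7:26061375-26061494, plus strand): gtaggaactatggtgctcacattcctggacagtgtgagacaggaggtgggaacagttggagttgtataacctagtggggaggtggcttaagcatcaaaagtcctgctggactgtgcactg
Cyp2b23 (chr7:26686431-26686550, minus strand): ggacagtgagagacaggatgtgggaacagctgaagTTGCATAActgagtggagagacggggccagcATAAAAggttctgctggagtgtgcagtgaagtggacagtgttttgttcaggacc
Cyp2b19 (chr7:26757022-26757141, plus strand): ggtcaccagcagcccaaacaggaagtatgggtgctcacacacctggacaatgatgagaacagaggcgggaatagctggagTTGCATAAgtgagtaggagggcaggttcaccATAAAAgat
The 120 bases of Cyp2b9 and Cyp2b13 were identical, with 0 differences. Over the full 250 bases before the start, they differed at 2 positions, C48T and T104C, counted from 1 at the 5′ end of the window, with the Cyp2b13 base first and the Cyp2b9 base last. Aligned with gaps, the 250-base window of Cyp2b10 had an identity of 70% to that of Cyp2b9.

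TTGCATAA was found 58 bases before the start of Cyp2b10, 85 before that of Cyp2b23 and 40 before that of Cyp2b19, and in neither Cyp2b9 nor Cyp2b13. On either strand, 0.694% of 32851 RefSeq windows of 250 bases held it. The nearest ATAAAA lay 27, 54 and 9 bases before the starts of Cyp2b10, Cyp2b23 and Cyp2b19, where 17.0% of windows held 1 or more. The receptor half-site AGGTCA, present in 14.02% of windows, lay 138 bases before the starts of Cyp2b9 and Cyp2b13, 164 before Cyp2b23 and 121 before Cyp2b19. It was not in the window of Cyp2b10. AGTTCA, in 11.8% of windows, was in none of the 5, and neither was either half-site repeated after any 4 bases, a spacing that occurred in 0.0152% of windows for AGGTCA and 0.00913% for AGTTCA. The element through which CAR is known to act on Cyp2b10 lies farther upstream than these windows. The octamer was thus shared by the gene with the most Cyp2b counts and by the 2 with none in any library.

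Neither receptor transcript passed the test. Nr1i2, which encodes PXR (chromosome 16, 37604706 to 37650150, minus strand, in the table's own coordinates, those of a C57BL/6NJ strain annotation), had 112.7, 125.8 and 115.5 CPM in DEHP replicates 1 to 3, against 114.3, 96.6 and 137.4 CPM in control replicates 1 to 3. The DEHP values all lay inside the control range. The log2 fold change of DEHP over control was 0.02 ± 0.19 (SE, 95% interval -0.39 to 0.44; edgeR quasi-likelihood test, Benjamini-Hochberg adjusted p = 0.972). The interval leaves room for a change of up to 0.44 upward or 0.39 downward on the log2 scale, so equal levels were not shown. The sign of so small a value was negative without DEHP replicate 2 (-0.01) and without control replicate 2 (-0.09).

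Nr1i3, which encodes CAR (chromosome 1, 182878365 to 182885096, plus strand), had 126.4, 59.1 and 77.6 CPM in DEHP replicates 1 to 3, against 47.1, 47.9 and 74.5 CPM in control replicates 1 to 3. DEHP replicate 1 stood alone at the top, and DEHP replicate 2 lay below control replicate 3, so the groups overlapped. The log2 fold change was 0.63 ± 0.28 (95% interval 0.01 to 1.25, unadjusted p = 0.0458, adjusted p = 0.376, edgeR) and did not pass. It was 0.29 without DEHP replicate 1, where the adjusted p was 0.624. It was 0.90 without control replicate 3, where the adjusted p was 0.110.

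On a scale per transcript length (TPM), PXR messenger RNA was the more abundant of the 2 in every library. Nr1i2 averaged 92.3 ± 4.06 TPM in DEHP livers and 92.1 ± 13.04 TPM in control livers (SD, n = 3 each). Nr1i3 averaged 39.8 ± 15.8 TPM in DEHP livers and 26.0 ± 6.63 TPM in control livers. The ratio of Nr1i3 to Nr1i2 in TPM was 0.648, 0.271 and 0.389 in DEHP replicates 1 to 3, against 0.238, 0.287 and 0.314 in control replicates 1 to 3. The highest ratio was that of DEHP replicate 1 and the groups overlapped (two-sided exact permutation p = 0.3, where 3 against 3 allows no p below 0.1).

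**Figure D1:**
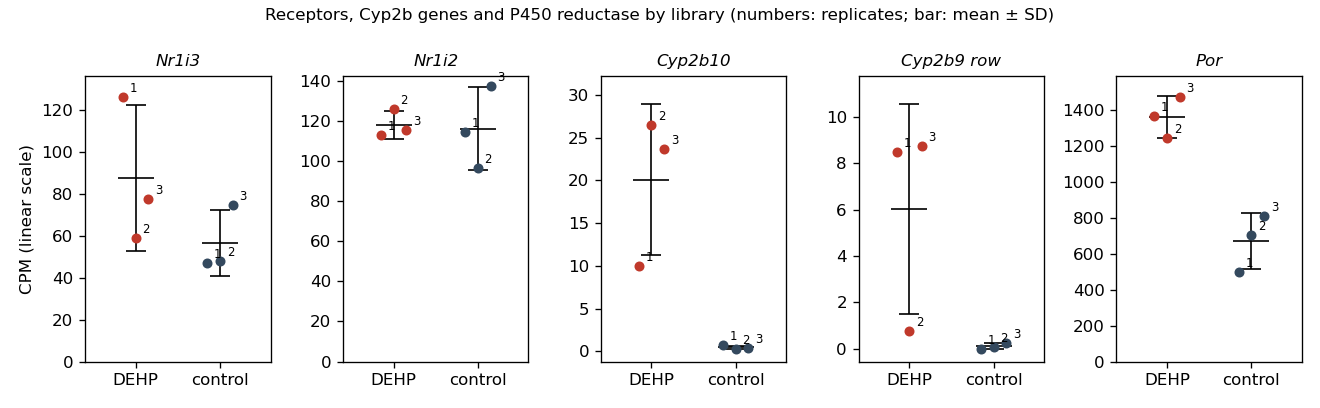
CPM of Nr1i3 (CAR), Nr1i2 (PXR), Cyp2b10, the row described as Cyp2b9 and Por in each library, on linear scales, with DEHP libraries in red and control libraries in dark blue; horizontal marks and bars are means ± SD, n = 3 each, and numbers are replicates. Cyp2b10 and Por separate the groups, Nr1i2 does not, and the Cyp2b9 row is at 0.785 CPM in DEHP replicate 2, against 8.51 and 8.75 CPM in the other DEHP libraries.

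Among the tested members, Cyp2b10, a P450 that oxidizes drugs and steroids, had the greatest log2 fold change and alone passed. Cyp2b10 (chromosome 7, 25249046 to 25286370, plus strand) had 99, 304 and 279 counts in DEHP replicates 1 to 3, against 10, 4 and 4 counts in control replicates 1 to 3. In CPM these were 10.03, 26.5 and 23.7 in DEHP libraries, against 0.709, 0.316 and 0.354 in control libraries. The lowest DEHP value was far above the highest control value, and DEHP replicate 1 was below the other two. The log2 fold change was 5.39 ± 0.48 (95% interval 4.37 to 6.42, adjusted p = 2.82e-04, edgeR), a fold of 42.0 that rests on a control level of 18 counts over 3 libraries. Its control counts were too low for the low-count filter, so Cyp2b10 entered the test through the DEHP libraries, where it is high. Cyp2b10 rose, as did 0.0561% of the genes tested (7 of 12468), while 0.0160% (2) fell, all at an adjusted p of 0.05. Left out in turn, no single library ended the Cyp2b10 call, whereas limma-voom did not call it (5.29, adjusted p = 0.215).

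The level of CAR messenger RNA and that of Cyp2b10 did not have the same order among DEHP livers. DEHP replicate 1 had the highest Nr1i3 of the 3, 126.4 CPM, and the lowest Cyp2b10, 10.03 CPM. DEHP replicate 2 had the lowest Nr1i3, 59.1 CPM, and the highest Cyp2b10, 26.5 CPM. With 3 libraries this is a description of these libraries and was not tested.

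The row described as Cyp2b9 (chromosome 7, 25518100 to 25551755, plus strand) carried the only other Cyp2b counts, and they differed among DEHP livers. It had 84, 9 and 103 counts in DEHP replicates 1 to 3, against 0, 1 and 3 counts in control replicates 1 to 3. In CPM these were 8.51, 0.785 and 8.75 in DEHP libraries, against 0, 0.079 and 0.266 in control libraries. The groups did not overlap, yet DEHP replicate 2 lay nearer to the control libraries than to the other DEHP libraries. The row missed the low-count filter. Kept in the fit, as decided once its counts had been read, its log2 fold change was 5.68 ± 1.09 (adjusted p = 0.126, edgeR), which did not pass. Without DEHP replicate 2 that value was 6.21 (adjusted p = 0.00545), and without control replicate 3 it was 6.98 (adjusted p = 0.0126). In both of these fits the row passed the filter by itself, through DEHP libraries where it is high. The first also leaves out the DEHP library nearest to the control libraries, so these calls are no separate support. DESeq2 (5.80, adjusted p = 1.17e-05) and edgeR with no low-count filter (5.70, adjusted p = 5.21e-12) called it with all 6 libraries.

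The mixture of the 2 transcripts therefore varied between libraries. Cyp2b9 made up 45.9% of the Cyp2b counts in DEHP replicate 1 (84 of 183, 95% exact Clopper-Pearson interval 38.5% to 53.4%), 2.88% in DEHP replicate 2 (9 of 313, 1.32% to 5.39%) and 27.0% in DEHP replicate 3 (103 of 382, 22.6% to 31.7%). In control livers the totals were only 10, 5 and 7 counts, with 0, 1 and 3 from Cyp2b9, and the intervals, 0% to 30.9%, 0.505% to 71.6% and 9.90% to 81.6%, were too wide to set an order. The intervals cover counting error only. Those of the 3 DEHP libraries did not overlap. DEHP replicate 2 had the most Cyp2b10 of all libraries and, among DEHP libraries, the least Cyp2b9.

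How far reads could be divided between these rows was measured on GENCODE M21 transcripts of GRCm38. The coding sequences of Cyp2b10 and Cyp2b9, taken as the longest open frame of the longest protein-coding transcript, were 87.7% identical. Of all 50-base stretches of the Cyp2b10 transcript, 0.536% also occurred in Cyp2b9, and 0% of stretches of 75 bases did. Cyp2b13 was nearer to both. It shared 7.82% of the 50-base stretches of Cyp2b10 and 10.8% of those of Cyp2b9, and 2.01% and 5.16% of 75-base stretches. At 150 bases 0% were shared by any pair of the 5 genes. The sources used here give neither read length nor the treatment of reads with several matches, and reads of Cyp2b13, which has no row, could be counted elsewhere.

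Cyp2b23 (chromosome 7, 26095500 to 26117391, minus strand) and Cyp2b19 (chromosome 7, 26190888 to 26206203, plus strand) had 0 counts in all 6 libraries. With a limit of 3 counts per library, a count of 0 allows up to 0.255 to 0.304 CPM in DEHP libraries and 0.213 to 0.266 CPM in control libraries, for counting error only. The 5 Cyp2b pseudogene rows also had 0 counts. Summed over all Cyp2b rows, which does not depend on how reads were divided between them, the subfamily had 18.5, 27.3 and 32.5 CPM in DEHP replicates 1 to 3, against 0.709, 0.395 and 0.620 CPM in control replicates 1 to 3. The groups lay far apart, with 26.1 ± 7.04 CPM in DEHP livers and 0.575 ± 0.162 CPM in control livers (SD, n = 3 each). The difference was 4.08 on the log2(CPM + 1) scale (two-sided exact permutation p = 0.1, the smallest that 20 arrangements allow).

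The Cyp2b genes lie in a cluster of Cyp2 genes, and the difference was not shared evenly along it. The Cyp2b9 row starts 269.1 kb beyond the start of Cyp2b10, Cyp2b23 and Cyp2b19 start at 846.5 and 941.8 kb, and the Cyp2a and Cyp2f genes follow. Of 8 other P450 genes of the cluster, 7 had a row, 4 were tested and 0 passed in either direction (edgeR, and likewise DESeq2 and limma-voom). With no low-count filter 1 of 6 passed as higher (1.07% of all genes), and without control replicate 3 it was 1 of 4 (0.946% of all genes). Over all genes tested, 6.11% were higher and 6.97% were lower with an unadjusted p under 0.05, which 0 of these 4 reached; the smallest p was 0.0502, for Cyp2a12, and DESeq2 and limma-voom each put 1 of the 4 under it. Cyp2a12, a steroid hydroxylase, had 62.6, 62.6 and 72.5 CPM in DEHP livers, against 18.1, 32.2 and 60.6 CPM in control livers, without overlap (log2 fold change 0.84 ± 0.37, adjusted p = 0.382, edgeR). Cyp2a5, the coumarin hydroxylase and a known CAR target, had 6.28, 12.2 and 6.29 CPM in DEHP livers, against 6.66, 4.43 and 2.57 CPM in control livers (0.85 ± 0.41, adjusted p = 0.393). Cyp2f2, known from lung and liver, was the most abundant at 725 ± 85.9 CPM in DEHP livers and 661 ± 367 CPM in control livers, and Cyp2g1, known from the nasal epithelium, was at 2.04 ± 1.75 CPM in DEHP livers and 2.26 ± 2.26 CPM in control livers (log2 fold changes 0.13 ± 0.38 and -0.16 ± 0.94). Their groups overlapped. Cyp2a4 had 0 counts in all libraries. Its row and that of Cyp2a5 both start at 1034.3 kb, and how reads were divided between them was not measured.

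**Figure D2:**
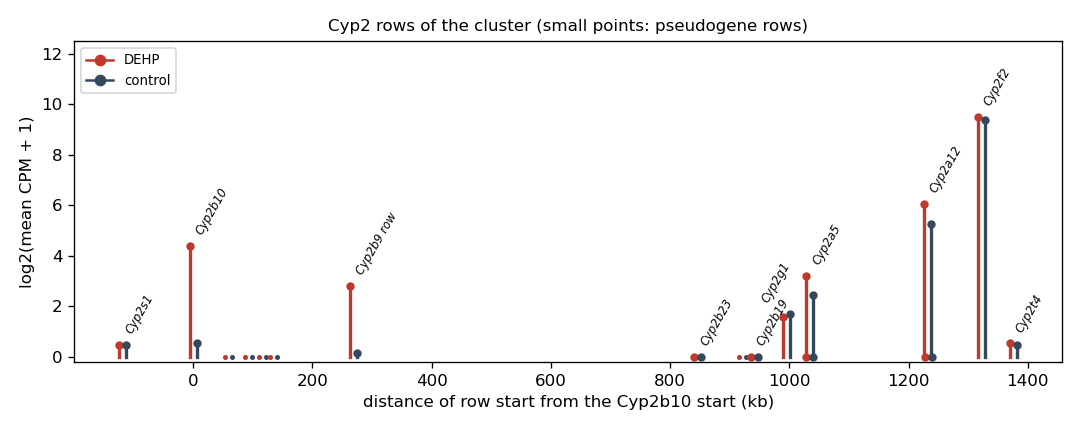
Mean CPM of each Cyp2 row of the chromosome 7 cluster, as log2(mean CPM + 1), against the distance in kb of its start from the Cyp2b10 start, with DEHP in red drawn just left of control in dark blue; each value is a mean of 3 libraries, without error bars, and small points are pseudogene rows. Cyp2b10 and the Cyp2b9 row are near 0 in control livers only, while Cyp2f2 is high in both groups.

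Por, the reductase, had about double the level in DEHP livers but did not pass over all genes. Por (chromosome 5, 145465202 to 145542564, plus strand) had 1366, 1243 and 1473 CPM in DEHP replicates 1 to 3, against 499.8, 705.1 and 809.9 CPM in control replicates 1 to 3. The groups did not overlap, as was so with a higher DEHP group for 9.17% of all genes tested and with a lower one for 8.57%. The log2 fold change was 1.02 ± 0.21 (95% interval 0.56 to 1.48, a fold of 2.03, unadjusted p = 3.02e-04, adjusted p = 0.128, edgeR). Por passed without control replicate 3 (1.20, adjusted p = 0.00700, where 0.946% of genes were called higher), with DESeq2 (1.04, adjusted p = 6.08e-04, 0.951% called higher) and with no low-count filter (1.05, adjusted p = 3.19e-04, 1.07% called higher). The direction was the same in every alternative.

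Por was then set against the P450 transcripts it serves. In TPM, Por averaged 678 ± 84.6 in DEHP livers and 341 ± 84.3 in control livers (SD, n = 3 each). The 60 P450 genes of families 1 to 4 that carry a symbol summed to 30620, 32600 and 32710 TPM in DEHP replicates 1 to 3, against 11890, 18840 and 23510 TPM in control replicates 1 to 3, without overlap (exact permutation p = 0.1, two-sided, the floor for 3 against 3). As a percentage of that sum, Por was at 2.20%, 1.83% and 2.34% in DEHP livers, against 2.05%, 2.01% and 1.70% in control livers. These shares overlapped (exact permutation p = 0.4), so a change of Por relative to this sum was not detectable with 3 libraries a group. The sum leaves out rows known only by description, the Cyp2b9 row among them. With the 14 such protein-coding rows added, 74 in all, it was 34620, 37570 and 37480 TPM in DEHP livers, against 14620, 22100 and 27310 TPM in control livers. All Cyp2b transcripts together made up 0.0535%, 0.0665% and 0.0887% of that wider sum in DEHP livers, against 0.00450%, 0.00188% and 0.00226% in control livers (exact permutation p = 0.1). Cyp2b transcripts were a small part of it in both groups. Por was at 1.95%, 1.58% and 2.04% of the wider sum in DEHP livers, against 1.67%, 1.71% and 1.46% in control livers (exact permutation p = 0.3). These ratios were added once the counts had been read.

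On the TPM scale the order of the members was the same in both groups, Por first, then Nr1i2, Nr1i3, Cyp2b10 and the Cyp2b9 row. In DEHP livers Cyp2b10 had 19.0 ± 8.31 TPM and the Cyp2b9 row 6.59 ± 5.01 TPM, and in control livers Cyp2b10 had 0.438 ± 0.191 TPM and the Cyp2b9 row 0.125 ± 0.145 TPM. Ranges of neighbours overlapped only for Cyp2b10 and the Cyp2b9 row in DEHP livers, at 9.42 to 24.2 TPM and 0.815 to 9.84 TPM.

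Around these members, a list of known CAR and PXR target genes was mostly higher in DEHP livers without passing gene by gene. Of 57 genes on the list, 47 had a row and 43 were tested. Cyp2b10 alone passed at an adjusted p of 0.05. At an unadjusted p of 0.05, 15 were higher (34.9%, against 6.11% of all genes tested) and 2 lower (4.65%, against 6.97%). The groups did not overlap for 17 higher (39.5%, against 9.17%) and 3 lower (6.98%, against 8.57%). The median log2 fold change of the list was 0.34 with 33 of 43 positive, beside a median of -0.03 over all 12468 genes. Cyp2b10 and Por are on the list, so it is not separate from the values above. Without control replicate 3, 8 higher and 1 lower of 43 passed, where 0.946% of all genes were called higher and 2.16% were called lower. With DEHP replicate 1 left out, 1 passed as higher and 1 as lower, where 0.116% of all genes were higher and 0.0310% lower. DESeq2 called 10 higher and 1 lower of 41 (0.951% and 1.14% of all genes), and limma-voom called 0. With no filter set in edgeR, 12 higher and 1 lower of 45 passed (1.07% and 1.34% of all genes).

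**Figure D3:**
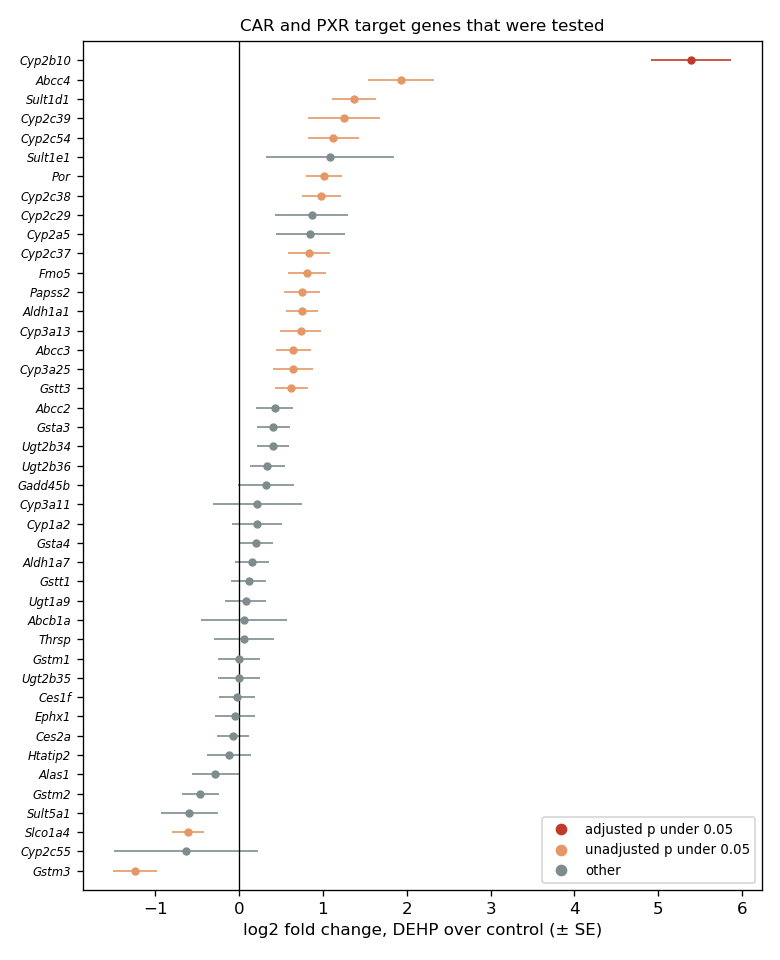
Log2 fold change of DEHP over control (± SE, edgeR, 3 libraries each) for the 43 CAR and PXR target genes tested, ordered by value; red is an adjusted p under 0.05, orange an unadjusted p under 0.05, and grey neither. Cyp2b10 at 5.39 is the red point, and the orange points number 14 to the right of 0 and 2 to the left.

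Among the genes of the list that oxidize drugs and lipids, Cyp2b10 alone passed. Aldh1a1, which oxidizes retinal and other aldehydes and was the most abundant member, had 1553, 1939 and 1688 CPM in DEHP livers, against 906.7, 1116 and 1058 CPM in control livers (log2 fold change 0.75 ± 0.19, adjusted p = 0.169, edgeR). The DEHP libraries all lay above the control libraries. The 6 tested Cyp2c genes, which encode drug and arachidonic acid oxidases, are named here after their values were seen. Cyp2c38, Cyp2c54, Cyp2c37 and Cyp2c29 had log2 fold changes of 0.98 ± 0.24, 1.12 ± 0.31, 0.83 ± 0.25 and 0.87 ± 0.44 without overlap of the groups, and adjusted p of 0.151, 0.200, 0.213 and 0.451. Cyp2c39, at a low level, had 1.26 ± 0.43 (adjusted p = 0.264), also without overlap, and Cyp2c55, at most 1.24 CPM in any library, had -0.63 ± 0.86 with overlap. Cyp3a13 and Cyp3a25, members of the subfamily best known as PXR targets, had 0.73 ± 0.25 and 0.65 ± 0.24 (adjusted p = 0.260 and 0.292), while the Cyp3a11 row, at 4.03 ± 2.78 CPM in DEHP livers and 3.50 ± 1.62 CPM in control livers, had 0.22 ± 0.53. None of these passed. Other protein-coding rows described as Cyp3a11 had 0 counts in every library, and whether reads of Cyp3a11 were counted elsewhere was not tested.

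Conjugation and transport genes had values in both directions, with more of them higher than lower without overlap of the groups. Gsta3, a glutathione transferase, had 1131, 1464 and 1416 CPM in DEHP livers, against 901.7, 1099 and 1016 CPM in control livers (0.41 ± 0.20, adjusted p = 0.389, edgeR). Ugt2b36, a glucuronosyltransferase, had 980 ± 218 CPM in DEHP livers and 775 ± 52.3 CPM in control livers (0.34 ± 0.21, adjusted p = 0.511). Neither passed. Of genes named after their values were seen, the sulfotransferase Sult1d1 was at 1.37 ± 0.26 (adjusted p = 0.120) and the efflux transporter Abcc4 at 1.93 ± 0.40 (adjusted p = 0.128). Ugt2b34, Papss2, Abcc3 and Gstt3, likewise named, had 0.40 ± 0.19, 0.75 ± 0.22, 0.65 ± 0.21 and 0.62 ± 0.20, without overlap. Their adjusted p were 0.393, 0.200, 0.244 and 0.233. Lower in DEHP livers without overlap were the glutathione transferase Gstm3, at -1.24 ± 0.26 (adjusted p = 0.128), its relative Gstm2, at -0.46 ± 0.22 (adjusted p = 0.399), and the uptake transporter Slco1a4, at -0.61 ± 0.19 (adjusted p = 0.234). The row described as Ugt1a1, the bilirubin glucuronosyltransferase, was matched by its description and had 0.58 ± 0.24 (adjusted p = 0.345).

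Partners and regulators of the receptors showed no comparable shift. Of 27 genes 25 were tested and 0 passed (edgeR). An unadjusted p under 0.05 was reached by 0 higher and 2 lower (8% lower, against 6.97% of all genes) and the median log2 fold change was -0.06. DESeq2 and limma-voom also called 0. Rxra, the main partner of CAR and PXR in liver, had 438.6, 318.2 and 382.1 CPM in DEHP livers, against 425.3, 407.8 and 413.5 CPM in control livers (-0.13 ± 0.19, adjusted p = 0.816, edgeR). The groups overlapped. Hnf4a, a nuclear receptor that supports CAR and PXR expression, was at -0.06 ± 0.20, the chaperone Hsp90ab1, of the family that holds CAR in the cytoplasm, at -0.23 ± 0.19, and Egfr, whose signalling restrains CAR, at -0.09 ± 0.26 (adjusted p = 0.937, 0.658 and 0.919). These 3 also overlapped between the groups. The 2 with an unadjusted p under 0.05, named after their values were seen, were the retinoid X receptor Rxrg, at -1.30 ± 0.42 (adjusted p = 0.252), and the chromatin remodeller Smarca4, at -0.54 ± 0.20 (adjusted p = 0.290).

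Genes that supply electrons and haem to P450 enzymes had values in both directions. All 20 were tested, Por included, and 0 passed. At an unadjusted p of 0.05, 3 were higher (15%, against 6.11%) and 0 lower. The groups did not overlap for 6 higher (30%, against 9.17%) and 2 lower (10%, against 8.57%), and the median was -0.03, as over all genes. DESeq2 called 1 higher, where 0.951% of all genes were, and limma-voom 0. Cyb5a, cytochrome b5, had 1360, 1423 and 1382 CPM in DEHP livers, against 979.9, 1188 and 1227 CPM in control livers (0.30 ± 0.19, adjusted p = 0.534, edgeR). Pgrmc1, a haem-binding partner of P450 enzymes, had 1003, 1397 and 1119 CPM in DEHP livers, against 916.9, 848.2 and 824.3 CPM in control livers (0.44 ± 0.20, adjusted p = 0.368). Both were higher without overlap and neither passed. Alas1, the first enzyme of haem synthesis and a known CAR and PXR target, had 643.3, 374.9 and 639.3 CPM in DEHP livers, against 498.2, 952.2 and 565.5 CPM in control livers (-0.28 ± 0.28, adjusted p = 0.716), with overlap.

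Because Cyp2b9 is known as a female-predominant gene in mouse liver, other genes with a sex-dependent level were read beside it. Xist, the RNA of the inactive X chromosome, was at 0 to 0.262 CPM in DEHP libraries and 0 to 0.395 CPM in control libraries. Of 21 female-predominant genes 15 had a row and 7 were tested, with 0 passing, 2 higher at an unadjusted p of 0.05 (28.6%, against 6.11% of all genes) and a median of 0.92. DESeq2 and limma-voom called 0 as well. Fmo2 (a flavin monooxygenase), the most abundant, had 36.8, 85.8 and 91.8 CPM in DEHP livers, against 23.2, 48.2 and 41.9 CPM in control livers (0.92 ± 0.37, adjusted p = 0.356, edgeR). The groups overlapped, and DEHP replicate 1, high for Cyp2b9, was the lowest DEHP library for Fmo2. Cyp17a1 (a steroid lyase), Acot3 (an acyl-CoA thioesterase) and Nipal1 (a magnesium transporter) had -0.27 ± 0.30, 0.99 ± 1.00 and 0.48 ± 0.46, all with overlap. Of 23 male-predominant genes 11 had a row by symbol and were tested, and 0 passed (edgeR). DESeq2 called 2 higher, where 0.951% of all genes were, and limma-voom called 0. The unadjusted p was under 0.05 for 2 higher (18.2%, against 6.11%) and 1 lower (9.09%, against 6.97%), and the median was -0.02. With rows matched by description added, 17 were tested, 0 passed, 5 had an unadjusted p under 0.05 and the median was 0.09. The added rows under that p, described as Gstp1 and Serpina1e, were both lower, at -0.82 ± 0.25 and -0.60 ± 0.26 (adjusted p = 0.230 and 0.353, edgeR). Mup3 and Mup21, major urinary proteins, had 0.22 ± 0.28 and 0.53 ± 0.91, Cyp7b1, an oxysterol hydroxylase, 1.09 ± 0.25 (adjusted p = 0.142, without overlap), and the complement component C6 -0.23 ± 0.23. The sex of the animals was not read from these values.

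Control replicates 1 and 2 stood apart from control replicate 3 in interferon-stimulated genes, and the values of the members and lists without them follow. The 22 tested genes of that list lay, as a median from the mean of the 6 libraries, at -1.44, -1.03 and -0.90 on the log2 scale in DEHP replicates 1 to 3, against 2.40, 2.18 and -1.23 in control replicates 1 to 3. Of them 0 passed (edgeR), while DESeq2 called 13 of 23 lower, where 1.14% of all genes were, and limma-voom called 0. At an unadjusted p of 0.05, 20 were lower (90.9%, against 6.97% of all genes), with a median log2 fold change of -2.93. Bst2, Irf7, Ifi27 and Isg15, the most abundant, had -1.92 ± 0.68, -3.62 ± 1.34, -1.43 ± 0.44 and -5.58 ± 1.80 (adjusted p = 0.356, 0.382, 0.276 and 0.350, edgeR). Acute phase genes, whose products the liver secretes in inflammation, had a median of -0.51 over 18 tested, with 0 passing (edgeR). DESeq2 called 2 lower, where 1.14% of all genes were, and limma-voom called 0. At an unadjusted p of 0.05, 6 were lower (33.3%, against 6.97%). Hp, Hpx, C3 and Fgb (haptoglobin, hemopexin, a complement component and a fibrinogen chain) had -0.93 ± 0.35, -1.16 ± 0.30, -0.11 ± 0.20 and -0.32 ± 0.22. Without control replicate 3, 24 of 24 interferon-stimulated and 7 of 18 acute phase genes passed as lower, where 2.16% of all genes did. That fit keeps only the control libraries in which the interferon-stimulated list was high, so its count is no separate support. Oas3 and Rsad2 entered it through control replicates 1 and 2 (11.8 and 12.3 CPM, and 2.98 and 1.42 CPM). In DEHP libraries they had at most 0.680 and 0.0850 CPM. With control replicates 1 and 2 left out instead, 0 passed (3 of each list at an unadjusted p of 0.05), the interferon-stimulated median was 0.19 with 17 of 22 positive, and the acute phase median was -0.01. In the fit without control replicate 3, 1 of 25 partners or regulators passed as lower (2.16% of all genes). In the same fit 1 of 20 electron supply genes, 1 of 4 other P450 genes of the cluster and 2 of 11 male-predominant genes passed as higher (0.946% of all genes). Inflammation is known to lower CAR, PXR and P450 transcripts in liver, and its part in the values above was not tested.

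With control replicates 1 and 2 left out together, an alternative added once the libraries had been compared, the log2 fold change was 5.80 for Cyp2b10 (adjusted p = 0.0688, edgeR) and 0.76 for Por (adjusted p = 0.873). Nr1i3 then had 0.24, Nr1i2 -0.21 (adjusted p = 0.998 each), and the median of the target list was 0.43 with 0 of 44 called. With the single control library left, that library is assumed to vary like the DEHP libraries. The Cyp2b9 row had 4.44 (adjusted p = 0.971). Medians were 0.14 for electron supply and haem genes, 0.92 for the other P450 genes of the cluster, -0.07 for partners and regulators, 0.97 for female-predominant and -0.26 for male-predominant genes, with 0 called in each list. The Cyp2b10 difference was as large against control replicate 3 alone, although it then missed the threshold.

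**Figure D4:**
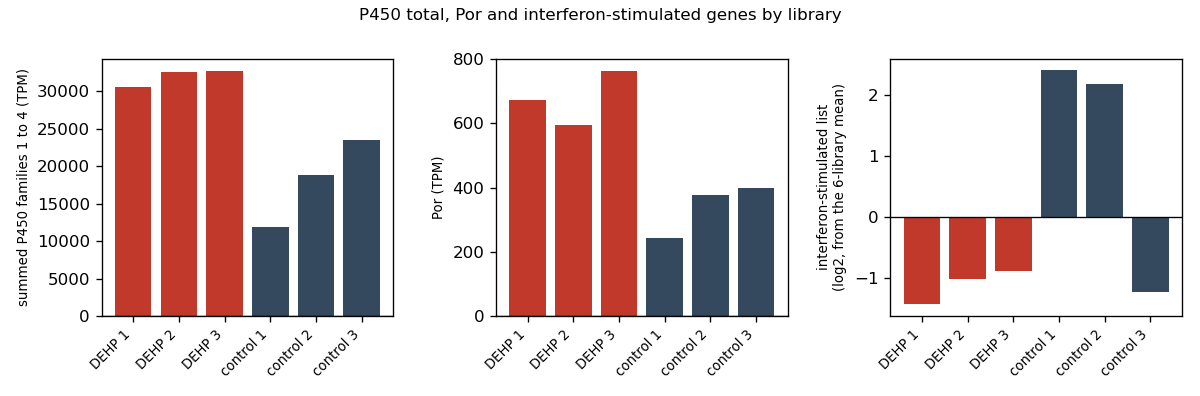
Summed TPM of the 60 P450 genes of families 1 to 4 (left), TPM of Por (middle) and the median level of 22 interferon-stimulated genes on the log2 scale from the mean of the 6 libraries (right), 1 bar per library, DEHP in red and control in dark blue. Control replicate 1 has the lowest P450 sum, 11890 TPM, and the highest interferon-stimulated level, 2.40, and control replicate 3 has 23510 TPM and -1.23.

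Markers of other liver cells were read in the same libraries. Summed Kupffer cell markers (10 of 10 with counts) were at 248.5 to 365.2 CPM in DEHP libraries and 232.3 to 795.2 CPM in control libraries. Sinusoidal endothelial markers (10 of 10) were at 222.5 to 404.8 CPM in DEHP libraries and 420.9 to 506.6 CPM in control libraries, and stellate cell markers (10 of 10) at 130.0 to 207.3 CPM in DEHP libraries and 217.2 to 274.3 CPM in control libraries. Both were lower in DEHP livers without overlap (exact permutation p = 0.1 each). B cell markers were at 6.11 to 32.7 CPM in DEHP libraries and 5.41 to 10.1 CPM in control libraries. T cell markers were at 3.65 to 11.3 CPM in DEHP libraries and 4.50 to 5.53 CPM in control libraries, and neutrophil markers at 1.11 to 3.05 CPM in DEHP libraries and 1.15 to 6.45 CPM in control libraries. In whole liver, fewer cells of a type and less RNA per cell cannot be told apart, and the part of cell composition in the values above was not tested.

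The genes whose profiles over the 6 libraries were nearest to each member were found among tested protein-coding genes with a name, as the root mean square distance of mean-centred log2 CPM. For Cyp2b10 the nearest were Krt23, a keratin (0.89), Unc79, a subunit of a sodium leak channel (1.05), and Mogat1, an acylglycerol transferase (1.17). Krt23 had 7.19, 12.9 and 16.7 CPM in DEHP livers, against 1.21, 0.869 and 1.15 CPM in control livers (log2 fold change 3.50 ± 0.41, adjusted p = 0.00250, edgeR). Like Cyp2b10, it was lowest among DEHP livers in replicate 1. The distances are not scaled to the spread of each profile. Those around Cyp2b10, which differs widely between the groups, therefore cannot be set against those around the other members. Around Por, Amz1, a zinc metalloprotease (0.116), Tfpi2, a protease inhibitor (0.118), and the target list member Cyp2c38 (0.120) were nearest. Around Nr1i2 they were Tmem164 (0.0455), Cecr2 (0.0487) and Helb (0.0541), and around Nr1i3 they were Vps13c (0.0964), Otud3 (0.130) and Nfatc2ip (0.143), all high in DEHP replicate 1. These distances describe 6 libraries and were not tested. The genes were chosen by likeness of profile, so an order of libraries shared with the member is no separate result.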

How the data were processed

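Mouse liver mRNA was read in pairs from directional libraries, per the labels' protocols. The deposited values are raw counts per gene. GRCm38.p6 is the build in the submitters' processing notes, while the gene identifiers belong to a C57BL/6NJ strain annotation. The aligner, the counter and any use of strand were not given in the sources used here. Of 42380 rows, 1284 without a gene name (2.73% to 4.28% of counts) stayed out of library sizes and tests.

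The test was edgeR 4.0.16 (R 4.3.3) with filterByExpr (minimum count 10), TMM scaling, the robust quasi-likelihood test without covariates, two-sided, and Benjamini-Hochberg adjustment over 12468 genes with a threshold of 0.05. Each SE is the log2 fold change over the root of F. CPM refer to TMM-scaled totals, and TPM use the lengths in the table. Promoters and names came from RefSeq (GRCm38.p6, all 5 Cyp2b genes matched), transcripts from GENCODE M21, aligned with Biopython 1.88. Alternatives were DESeq2 1.42.0, limma-voom (limma 3.58.1), RLE scaling, no low-count filter, a minimum mean of 1 CPM, a non-robust fit, the replicate number as a block, unnamed rows kept, and each library left out.

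The members, the gene lists and the tests were chosen with earlier results of these data known. Named genes were all members, the called and the 4 most abundant members of each list, and the 3 nearest profiles of each tested member; others are given as named after their values were seen. The series' design text describes another assay, so groups were taken from sample titles. One cell type marker list is not reported here.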

Additional observations from a re-analysis of the deposited data

How the results depend on the processing

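Of 12468 genes 9 passed; the count was 249 with DESeq2, 496 with no filter, 2 with limma-voom, 0 with control replicates 1 and 2 left out together (added once the data had been seen), and 5 to 400 with each library left out, the highest without control replicate 3. Cyp2b10 kept its direction throughout, at 5.15 to 5.87 with each library left out, and missed the threshold with limma-voom (5.29) and without control replicates 1 and 2 (5.80). Por, at 0.85 to 1.20 with each library left out, passed with no filter (1.05), DESeq2 (1.04) and without control replicate 3. The Nr1i2 sign turned without control replicates 1 and 2 (-0.21), without DEHP replicate 2 (-0.0141) and without control replicate 2 (-0.0906), and its values ran from -0.0906 to 0.18 with each library left out. Called CAR and PXR targets numbered 1, against 13 with no filter, 11 with DESeq2, 0 with limma-voom, 0 without control replicates 1 and 2, and 1 to 9 with each library left out. The cause of these changes was not tested. RLE scaling, a mean of at least 1 CPM, the fit that is not robust and unnamed rows kept changed no call of Cyp2b10, Por, Nr1i2 or Nr1i3. The Cyp2b9 row, kept in the fit, also stayed uncalled with RLE scaling and with the fit that is not robust. Its call with a mean of at least 1 CPM or with unnamed rows kept was not read.

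The replicate numbers did not pair the libraries: correlations of deviations between same-numbered libraries were -0.02, 0.06 and -0.03 over 12468 genes. With the replicate block 6 genes passed, Cyp2b10 had 5.27 (adjusted p = 0.0206, edgeR) and Por 1.04 (adjusted p = 0.164). The summed Cyp2b difference of 4.08 was 5.27 with a pseudocount of 0.1, 4.08 with RLE scaling, 2.31 without Cyp2b10 and 3.90 to 4.31 with each library left out. Depth limits the control Cyp2b values, which rest on 5 to 10 counts a library.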
